A study of Caenorhabditis elegans with 2 samples.

Results

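The 8 genes described here encode ubiquitin (ubq-1, ubq-2), the enzyme that activates it (uba-1), the ATPase CDC-48 (cdc-48.1, cdc-48.2) and the cofactor pair of that ATPase (ufd-1, npl-4.1, npl-4.2). They are 8 of the 19973 protein-coding genes of the nuclear chromosomes. As far as the rule says, cdc-48.1 was chosen for having one of the strongest peaks and the others by name as genes of the same pathway. The lists that the rule names are the optimal, the pooled and both replicates' lists. All 8 genes were chosen with earlier results of these data known. Peaks were counted for a gene where the summit was between 1500 bp upstream and 500 bp downstream of any of its annotated 5' transcript ends, called the promoter window below, or inside the gene from its start to its end.

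Ubiquitin is a small protein that is joined to other proteins through the action of an activating enzyme (E1), conjugating enzymes (E2) and ligases (E3). CDC-48, known as p97 or VCP in mammals, is a ring-shaped AAA ATPase that pulls ubiquitin-marked proteins out of complexes, chromatin and membranes. UFD-1 and NPL-4 form the adaptor through which it recognises ubiquitin chains, for example in the degradation of misfolded proteins of the endoplasmic reticulum. The system acts in all cell types and is not specific to neurons.

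The measurement was ChIP-seq, which maps where a protein sits on DNA, of the POU homeodomain factor UNC-86. The animals were whole hermaphrodite L1 larvae, collected 6 h after release from L1 starvation that followed bleaching, of Caenorhabditis elegans strain OP476. This strain carries unc-119(tm4063) on chromosome III and the integrated transgene wgIs476, which supplies UNC-86 with a C-terminal GFP tag, also described as GFP-FLAG, and the sample descriptions name anti-GFP as the antibody. There were 2 biological replicates of this 1 group, so no conditions were compared, and all members were read in the same 4 lists of peaks. The sources used here do not name the promoter that drives the fusion. Signal from the fusion itself can come only from cells that make it, and peak lists do not separate it from background of the immunoprecipitation. A weak peak shared by all of these cells cannot be told apart from a strong peak in a few. Any copies of genes that the transgene carries cannot be told apart from the gene's own place by peak lists.

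The optimal list held 2987 peaks that passed the authors' comparison of replicates, and the pooled list held 20768. Replicate 1 had a list of 29587 peaks and replicate 2 a list of 25172. The last 3 lists are relaxed lists that include background, so a weak peak in them is not by itself a binding call. Every signal value below is the authors' own and ranks peaks within its list only, and read depth is unknown. As a reference for the immunoprecipitation, 8 touch receptor neuron genes were fixed. Of these, 4 had an optimal peak in their promoter window, beside 13.1% of all protein-coding genes. They were mec-7 (signal 161), mec-10 (130), mec-3 (113.5) and mec-2 (72.8), while mec-4, mec-12, mec-17 and mec-18 had none. The median signal over all protein-coding genes with an optimal promoter peak, each by its strongest, was 147.

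Of the 8 genes, 3 had an optimal peak in their promoter window: cdc-48.1, ubq-2 and ubq-1. Across all protein-coding genes the share was 13.1%. Since cdc-48.1 was chosen with its peak in view, the count of 3 is a description only. The windows of 151 bases centred on these 3 summits are shown with that of the strongest pooled peak upstream of cdc-48.2, the copy of cdc-48.1 that had no optimal peak. Each is written 5' to 3' on the strand of its gene, from the RefSeq genome of WBcel235 (ce11). Capitals mark matches to any of the 8 sequences searched for, which are named further on.
cdc-48.1, chrII:10563501-10563651, minus strand: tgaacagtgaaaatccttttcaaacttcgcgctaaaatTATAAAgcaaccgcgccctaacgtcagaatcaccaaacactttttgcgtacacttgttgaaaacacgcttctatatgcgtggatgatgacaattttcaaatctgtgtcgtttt
ubq-2, chrIII:12978932-12979082, minus strand: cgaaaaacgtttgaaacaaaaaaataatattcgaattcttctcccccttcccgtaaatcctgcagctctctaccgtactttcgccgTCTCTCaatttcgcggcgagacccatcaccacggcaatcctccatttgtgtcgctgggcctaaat
ubq-1, chrIII:5940581-5940731, plus strand: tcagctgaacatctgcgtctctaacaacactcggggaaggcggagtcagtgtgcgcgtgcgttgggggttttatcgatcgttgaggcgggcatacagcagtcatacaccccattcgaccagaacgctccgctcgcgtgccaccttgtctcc
cdc-48.2, chrII:8137550-8137700, plus strand: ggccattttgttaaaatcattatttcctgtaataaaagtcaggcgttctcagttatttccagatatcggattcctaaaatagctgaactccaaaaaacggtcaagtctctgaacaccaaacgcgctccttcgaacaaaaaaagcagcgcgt

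The ATPase gene cdc-48.1 (WBGene00007352, chromosome II from 10560036 to 10563407, minus strand) carried the strongest peak of the group. The peak ran from 10563435 to 10563725, outside the gene, with its summit 169 bp upstream of the only annotated 5' end. Its signal, by which the gene was chosen, was 1231 in the optimal list, rank 8 of 2987. The strongest peaks of the replicates there had signals of 586 in replicate 1 (rank 6) and 643.5 in replicate 2 (rank 9), so both libraries placed it among their first 10. Their summits, 168 and 176 bp upstream, lay 8 bp apart. The optimal list was made from both replicates, so these ranks are not independent of the choice of the gene. The peak was 291 bp long, while 74.9% of optimal peaks had the commonest length of 396 bp.

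In the order of the optimal list, cdc-48.1 stood among genes of unrelated function. Just above it were peaks whose nearest protein-coding 5' ends were those of tag-340 (1274, 589 bp away) and rpl-35, a ribosomal protein gene (1255, 449 bp away). Just below were peaks nearest to pqn-41 (1185, 1845 bp downstream of the 5' end) and egg-5 (1156, 565 bp away). These 4 differed from cdc-48.1 by at most 2 ranks. In replicate 1 their signals ran from 508 to 579, below cdc-48.1, whereas in replicate 2 those of tag-340, rpl-35 and pqn-41 were higher than that of cdc-48.1, so the order within these 5 did not hold across replicates.

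The cdc-48.1 summit also fell into the windows of other genes. It lay 1315 bp upstream of C06A1.7, a protein-coding gene on the other strand, and 512 bp upstream of the snoRNA gene C06A1.9, which lies inside cdc-48.1. The 5' end of cdc-48.1 was the nearest of these. The next protein-coding gene upstream, C06A1.6 on the same strand, ended 704 bp away. A second optimal peak lay within 10 kb of the 5' end of cdc-48.1.

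The paralogue cdc-48.2 (WBGene00008053, chromosome II from 8138496 to 8141230, plus strand) had no optimal peak at its promoter or inside the gene. CDC-48.1 and CDC-48.2 are largely interchangeable in the worm, and their coding sequences were 75.5% identical. In the pooled list the strongest peak of its window, from 8137427 to 8137822, had a signal of 36.2 (rank 5876). It lay 871 bp upstream of cdc-48.2 and 707 bp upstream of the divergent gene ctns-1. The replicates gave 13.7 (rank 11751) and 28.0 (rank 4066), with no peak among the strongest 2987 of either. Both values were far below those of cdc-48.1 in the same libraries. Since cdc-48.1 was chosen by its strong signal and cdc-48.2 was not, this difference is a description only. The nearest optimal summit lay 9.59 kb from the 5' end of cdc-48.2 and had a signal of 68.8.

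**Figure D1:**
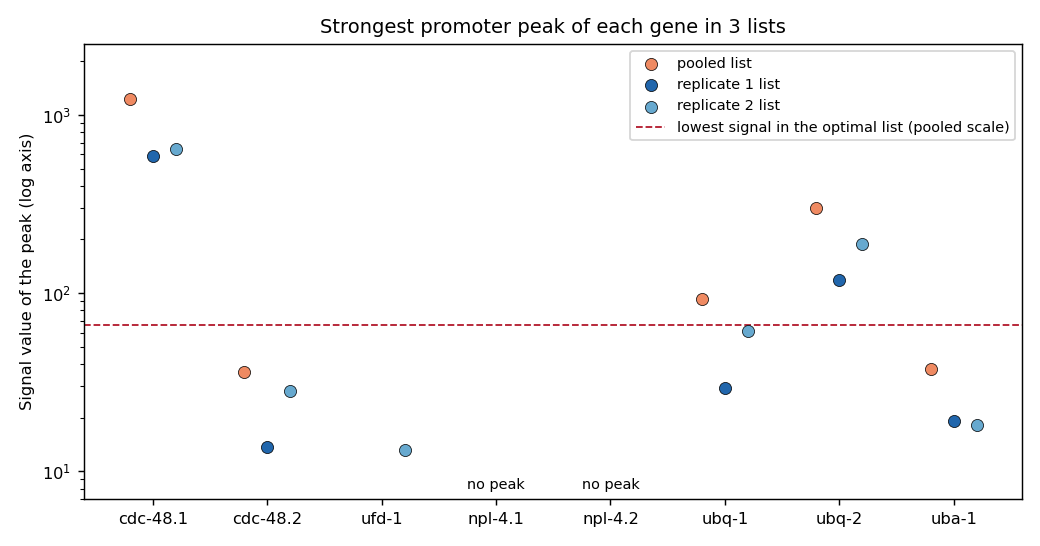
Signal value (log axis) of the strongest peak in the promoter window of each gene, in the pooled list and in each replicate's list, with a dashed line at 66.4, the lowest signal in the optimal list, which is on the scale of the pooled list. Points of cdc-48.1 lie highest in all 3 lists, from 586 to 1231, those of ubq-2 come next, and npl-4.1 and npl-4.2 have no peak.

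Of the cofactor genes, none had an optimal peak. ufd-1 (WBGene00006733, chromosome IV from 12329408 to 12330890, minus strand) had a single relaxed peak, in replicate 2, with a signal of 13.1 (rank 13968). Its summit lay in an intron, 69 bp downstream of the nearer of 2 annotated 5' ends. No peak of replicate 1 or of the pooled list lay in its window or body. The gene upstream, F19B6.1, lies on the same strand and ends only 85 bp before ufd-1 begins. The nearest optimal summit was 41.2 kb away.

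npl-4.1 (WBGene00019120, chromosome II from 5631351 to 5633284) and npl-4.2 (WBGene00019121, from 5622889 to 5624959), both on the plus strand, had no peak in any of the 4 lists. These genes lie near each other and are near-identical copies. Their coding sequences of 1587 bases were 99.5% identical and their promoters, the 250 bases before and 50 after the first base of the gene, 99.7%. Of the stretches of 32 bases in each promoter window, 89.5% occurred at another place in the genome as well, on either strand, and in the gene bodies 86.5% and 84.4% did. For protein-coding genes as a whole the median was 0.102% in the window and 0 in the body.

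Peaks were rare at genes of this kind in every list. Of 274 protein-coding genes whose windows were at least 80% repeated, 2 had an optimal promoter peak (0.730%), against 13.2% of the others. In the relaxed lists the shares were 0.730% against 42.3% (pooled), 0.730% against 54.2% (replicate 1) and 1.09% against 47.5% (replicate 2). The sources used here do not say how reads that match several places were treated, and its part in the missing peaks at npl-4.1 and npl-4.2 was not tested. The threshold of 80% was chosen after the values were seen. At the optimal peaks of cdc-48.1, ubq-1 and ubq-2 no stretch of 32 bases was repeated.

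**Figure D2:**
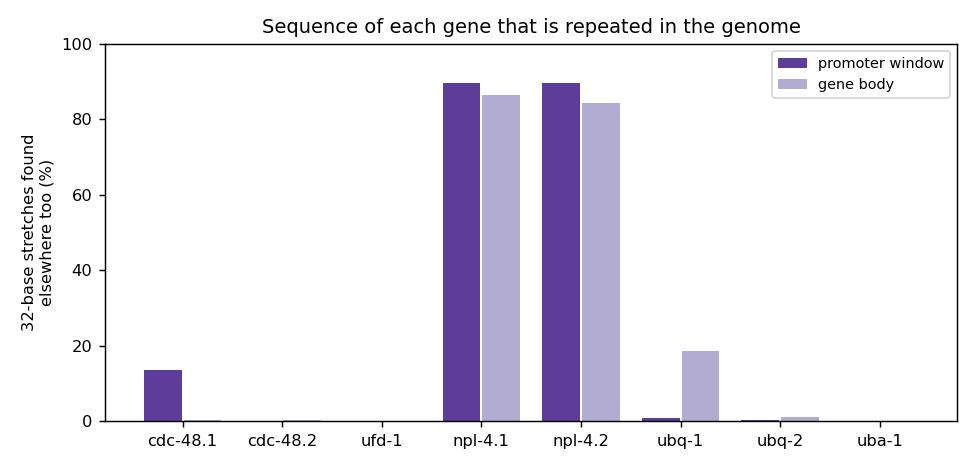
Share of overlapping stretches of 32 bases that occur more than 1 time in the genome, in percent, in the promoter window (dark bars) and body (light bars) of each gene. The bars of npl-4.1 and npl-4.2 stand at 84.4% to 89.5%, while cdc-48.1 has 13.5% in its window and ubq-1 has 18.6% in its body.

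The ubiquitin genes ubq-1 and ubq-2 both had an optimal peak, of unequal strength. ubq-2 (WBGene00006728, chromosome III from 12977963 to 12978523, minus strand) encodes ubiquitin joined to a protein of the large ribosomal subunit. Its peak, from 12978911 to 12979077, had a signal of 301 (rank 425 of 2987). The replicates gave 119 (rank 516) and 190 (rank 319), with the summit at the same base, 12979007, in all 4 lists. That summit lay 484 bp upstream of ubq-2 but only 155 bp upstream of the divergent gene frg-1, and 1145 bp upstream of ZK1010.2. When each peak was given only to its nearest 5' end, it therefore went to frg-1 and ubq-2 had none, which left 2 of the 8 genes with a peak beside 7.54% of all protein-coding genes. At 167 bp the peak was among the 6.86% of optimal peaks of that length or shorter.

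ubq-1 (WBGene00006727, chromosome III from 5940254 to 5943841, plus strand) is the polyubiquitin gene, whose product is cut into single ubiquitins. Its coding sequence of 2514 bases held 11 units of 228 bases with 6 bases left over, and the later units were 82.0% to 87.7% identical to the first. The first unit of ubq-2 was 85.1% identical to that of ubq-1. The optimal peak, from 5940458 to 5940853, had a signal of 93.0 (rank 2130), and it was the only optimal peak inside any of the 8 genes, against 3.45% of all protein-coding genes with one. Its summit lay in an intron between the 2 annotated 5' ends, 402 bp downstream of the first and 330 bp upstream of the second. No window of another gene held it.

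By rank, the replicates differed at ubq-1 more than at the other genes with an optimal peak. Replicate 2 had a signal of 60.9 at this summit (rank 1800), among its strongest 2987. Replicate 1 had 27.8 (rank 3328), just outside its strongest 2987, and a slightly higher 29.3 (rank 3122) at a second summit 41 bp upstream of the first 5' end. Among the 2987 optimal peaks ranked in each replicate, the intronic peak stood at 2804 in replicate 1 and 1844 in replicate 2. This gap of 960 ranks was larger than that of 94.5% of all optimal peaks, strong and weak together, whose median gap was 221. The gap was 205 ranks for ubq-2 and 3 for cdc-48.1. A peak near the top of both lists can have only a small gap, so the gaps depend on strength. Peaks of like strength were not compared. The pooled list held 2 more peaks in the window, 111 bp (signal 44.8) and 987 bp (32.4) upstream of the first 5' end, and each had a partner in both replicates.

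**Figure D3:**
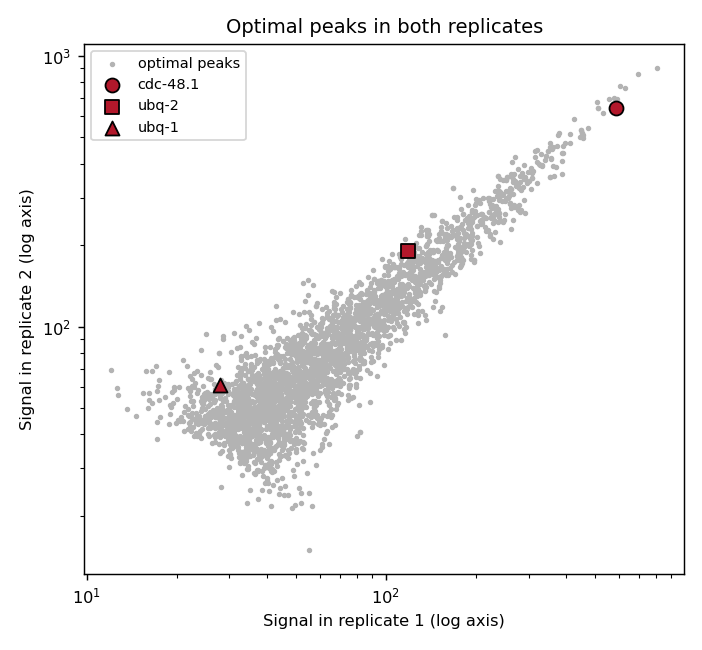
Signal of each of the 2987 optimal peaks in replicate 1 (x axis) and replicate 2 (y axis), both on log axes, taken as the strongest overlapping peak of each replicate's list. The circle of cdc-48.1 (586 and 643.5) lies at the upper end, the square of ubq-2 (119 and 190) in the middle, and the triangle of ubq-1 (27.8 and 60.9) on the side of replicate 2.

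The E1 gene uba-1 (WBGene00006699, chromosome IV from 9989671 to 9994945, minus strand) encodes the enzyme that starts every ubiquitin transfer. It had no optimal peak, and the nearest optimal summit was 68.0 kb away. A weak peak from 9994927 to 9995322 stood 180 bp upstream of its first 5' end in the pooled list, with a signal of 37.6 (rank 5583). The replicates placed it 179 and 159 bp upstream, with signals of 19.1 (rank 5709) and 18.2 (rank 7296). Although weak, it was at the same place in both libraries. Just inside the optimal list among the 8 genes was ubq-1 at 93.0 and just outside was uba-1 at 37.6, while the lowest signal in that list was 66.4.

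The order of the 8 genes was the same in both replicates at the top and not at the bottom. cdc-48.1 came before ubq-2 and ubq-2 before ubq-1, with signals of 586, 119 and 29.3 in replicate 1 and 643.5, 190 and 60.9 in replicate 2. uba-1 and cdc-48.2 came next and traded places: uba-1 was higher in replicate 1 (19.1 against 13.7) and lower in replicate 2 (18.2 against 28.0). These 2 neighbours therefore did not differ beyond the spread between replicates. For comparison, the median signal of the strongest optimal promoter peak over the 2612 protein-coding genes that had one was 147, with quartiles of 97.6 and 250.1. The peak of cdc-48.1, a gene chosen by this signal, lay far above that range, ubq-2 above its upper quartile and ubq-1 below its lower one.

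With the relaxed lists the count of genes with a promoter peak rose to 5 of 8 in the pooled list, where 41.8% of all protein-coding genes had one. It was 5 in replicate 1 (53.5% of all genes) and 6 in replicate 2 (46.9%), the sixth being ufd-1. The same 5 genes, cdc-48.1, cdc-48.2, uba-1, ubq-1 and ubq-2, had a peak in both replicates, against 35.8% of all genes. Among each replicate's strongest 2987 peaks the count was 2 in replicate 1 (12.8% of all genes), without ubq-1, and 3 in replicate 2 (13.2%).

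Inside the genes and outside the promoter windows all peaks were weak. There were 6 in the pooled list, with signals from 19.1 to 35.2, and 8 in each replicate, from 9.44 to 17.6 in replicate 1 and from 10.3 to 29.4 in replicate 2. Genes with any peak in the body, windows included, were 4 of 8 in the pooled list (33.8% of all genes), 3 in replicate 1 (47.2%) and 6 in replicate 2 (39.7%). Of the 4 such peaks of ubq-1 in replicate 1, 2 overlapped one of replicate 2, with summits 6 and 118 bp apart. Both body peaks of uba-1 overlapped, with summits 136 and 272 bp apart. At cdc-48.1 the overlapping peaks had summits 353 bp apart. The ubq-1 body is also the most repeated of the 6 genes that had any peak, and the part of this in its weak peaks was not tested.

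**Figure D4:**
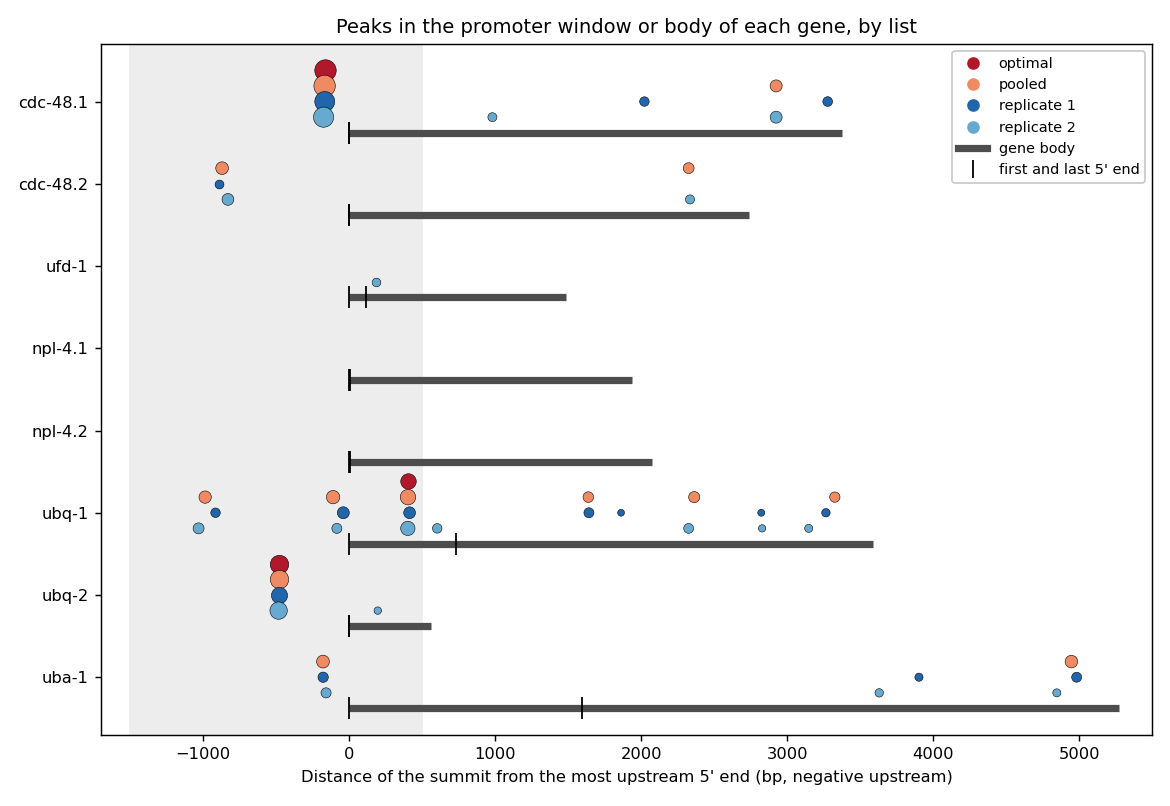
Summits in the promoter window or body of each gene, by list (colours), plotted by distance from the most upstream 5' end in bp; the dot grows with the logarithm of the signal, the grey band is the window of that 5' end, and dark bars are gene bodies with ticks at the first and last 5' end. The dots of cdc-48.1 and ubq-2 stack at 1 place upstream in all 4 lists, those of ubq-1 spread over the window and body, and no dot stands at npl-4.1 or npl-4.2.

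The windows around the summits shared none of the sequences searched for. Searched for on both strands were the repeat GAGAGA, the element AATGCAT to which UNC-86 and MEC-3 bind together, its shorter core of ATGCAT, the octamer of POU factors ATGCAAAT and the E box motif CACGTG. The other sequences were the TATA box motif TATAAA, the part of the heat shock element written TTCNNGAA, and TGACGTG from an element of the unfolded protein response. The core is contained in the longer element, so every match of the longer is also one of the shorter. Within 75 bp of the summit, cdc-48.1 held TATAAA, starting 37 bp before the summit, as 8.24% of optimal summit windows do. ubq-2 held GAGAGA on the opposite strand, as 36.3% of them do, and ubq-1 held no match. The window at the pooled peak of cdc-48.2 had none, and that of uba-1 had TTCNNGAA, which 6.53% of optimal windows held.

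The element of UNC-86 and MEC-3, its core and the POU octamer had no match in any of these 5 windows, and 3.05%, 5.16% and 1.24% of optimal windows held them. No match says only that these letters are not in the window. In promoters of 300 bases, ATGCAAAT was present at ubq-2 among the 8 genes, as in 2.86% of all protein-coding promoters. CACGTG was present at ufd-1 (5.82% of all), GAGAGA at cdc-48.2 (21.8%), TATAAA at cdc-48.1 (37.9%), and TTCNNGAA at cdc-48.1, ubq-2 and uba-1 (18.9%). In base composition the windows also differed. The ubq-1 window had 58.3% G and C bases, more than 95.8% of optimal windows, ubq-2 had 47.0%, and cdc-48.1 had 38.4%, against a median of 45.03%.

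Many other genes of the pathway, taken in 6 lists, had optimal promoter peaks. Of 99 genes that matched the annotation, 43 had one (43.4%), resting on 42 different peaks, with a median signal of 138 counting each gene by its strongest. That is to be read beside 13.1% of all protein-coding genes and their median of 147, and no test was made. In the pooled list 75 of the 99 had a peak, beside 41.8% of all protein-coding genes.

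Partners of CDC-48 had peaks at 7 of 14 genes. The strongest were at ubql-1, the ubiquilin that carries ubiquitinated proteins to the proteasome (296, shared with pdi-3), ufd-3, a CDC-48 cofactor (284), ubxn-2 (243) and ubxn-3 (176), which encode cofactors with a UBX domain. At ufd-3 the summit lay 120 bp upstream of the 5' end and the replicates gave 113 and 171. These genes were thus in the optimal list, whereas ufd-1, npl-4.1 and npl-4.2 were not. The genes named here were picked as the strongest of the 14. The windows of npl-4.1 and npl-4.2 were 89.5% repeated, and peaks were rare at genes of that kind. In the degradation pathway of the endoplasmic reticulum 2 of 7 genes had one, rnf-121 (112, shared with C16C10.4) and cup-2, a derlin (73.4, shared with tag-353).

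Among the modifiers that resemble ubiquitin and their E1 enzymes, 8 of 14 genes had a peak. lgg-2 (547) and lgg-1 (372), Atg8 proteins of autophagy, led, followed by urm-1 (183, shared with taf-11.3) and smo-1, the SUMO gene (148). The lgg-2 peak had signals of 281 and 265 in the replicates and was shared with fic-1. Of the E2 genes 10 of 25 had one, led by let-70 (401, shared with klc-1), ubc-3 (342), ubc-6 (261, shared with aka-1) and ubc-7 (201), and the peak of ubc-21 and ubc-22 was a single one counted for both.

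Of the ligases 8 of 19 genes had a peak, among them the highest signal of the 6 lists, at eel-1. eel-1, a HECT ligase, had 622.6 (254 and 356 in the replicates), wwp-1, also of the HECT type, 490 (230 and 261), siah-1 202 and cul-4, a cullin, 189. For siah-1 the summit of the peak lay 1444 bp upstream. Of the deubiquitinating enzymes 8 of 20 had one, with otub-2 (423), usp-39 (237, shared with nep-18), usp-3 (126, shared with the ribosomal gene rps-6) and math-33 (106.5, shared with erfa-3). No gene of the 6 lists reached the signal of cdc-48.1, and the highest, eel-1, ranked 80. Since cdc-48.1 was chosen by its strong signal and these genes were not, this is a description only.

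**Figure D5:**
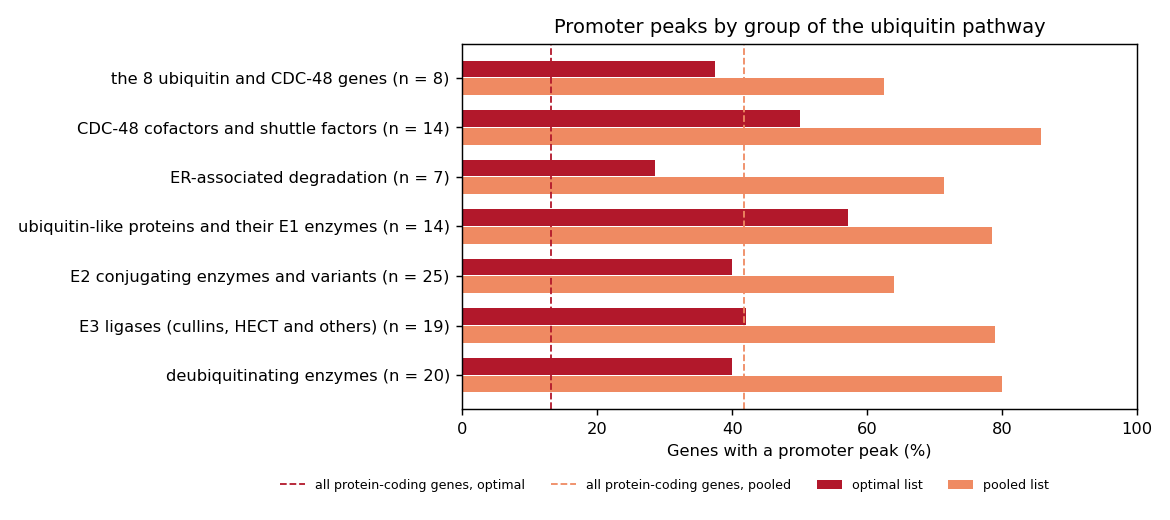
Percentage of genes with a promoter peak in the optimal list (dark bars) and the pooled list (light bars), for the 8 genes and 6 lists of the ubiquitin pathway, with dashed lines at 13.1% and 41.8%, the shares over all protein-coding genes. The dark bars run from 28.6% (endoplasmic reticulum degradation) to 57.1% (modifiers that resemble ubiquitin and their E1 enzymes).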

How the data were processed

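The deposited files were peak lists on the ce11 build. Per the deposited listing of files, the list of each replicate came from its alignment and a control, the pooled list from both alignments together, and the optimal list from thresholding by irreproducible discovery rate (IDR). The sources used here do not name the aligner, the peak caller or the threshold. The signal of each peak is the authors' deposited value, of unknown scaling, and summits come from the authors' offset within each peak. The ce10 lists were not used, apart from the number of peaks (3637) in the optimal one.

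Summits were set against the Ensembl release 115 annotation of WBcel235, the ce11 assembly, with Python 3.11.15, numpy 2.4.6, pandas 2.3.3, matplotlib 3.10.9 and biopython 1.88. The assignment was tested on simulated peaks. A summit in the windows of several genes was counted for each of them. Sequence was read from the RefSeq genome of the same assembly, and promoters were cut from it at the most upstream 5' end. Identity is over global alignment columns. Named were the 8 genes, up to 4 genes with the strongest optimal peaks in each pathway list, the neighbours of cdc-48.1 in rank and genes that share a counted summit. For the pathway lists, sharing was recorded for protein-coding genes only. ubc-21 and ubc-22, which share a peak, were named after their values were seen. Members and lists were chosen with earlier results of these data known. There is 1 group, so no test between conditions was made, and the depth of each library is unknown. Of 102 pathway symbols, 99 matched. The alternatives changed the window, the overlap rule, the assignment, the list and the summit window.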

Additional observations from a re-analysis of the deposited data

How the results depend on the processing

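The count of 3 genes with an optimal promoter peak ranged from 2 to 3 over 8 alternatives: it was 2 when each peak was given to its nearest 5' end (without ubq-2), among signals above the list's median (without ubq-1) and without replicate 2 (without ubq-1). The pathway count of 43 fell to 23 among signals above the median, where 7.71% of all protein-coding genes had a peak. It fell to 29 when each peak was given to its nearest 5' end (7.54% of all). Each setting without a replicate used only the strongest 2987 peaks of the other. With replicate 1 or 2 left in this way the pathway count was 40 (12.8%) and 45 (13.2%). For comparison, with their full lists it was 78 (53.5%) and 77 (46.9%). The other settings gave from 39 (11.1%) to 47 (15%). The count of 1 gene with an optimal peak in its body was 0 without replicate 2 and 1 without replicate 1. Signals in single replicates, which are on another scale, ran from 586 to 643.5 at cdc-48.1 and from 119 to 190 at ubq-2, and at ubq-1 the value without replicate 1 was 60.9. For ubq-1 without replicate 2 there was no value, as its strongest replicate 1 peak (29.3, rank 3122) fell outside the strongest 2987. For ubq-2 by nearest 5' end there was no peak to give a value. Within 30 bp of the summit TATAAA was at 0 of the 3 optimal summits in place of 1, and within 150 bp TTCNNGAA was at 1 in place of 0. These settings use fewer peaks, 1 replicate's list or another window, and beyond that the cause was not tested. No paired analysis was possible because there is 1 group. Depth is not known from peak lists, so a missing peak is not shown to be missing binding.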
